A study of Mus musculus with 18 samples.

Results

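The genes described here are the nuclear receptors CAR (Nr1i3) and PXR (Nr1i2) of mouse liver and 8 genes classically regulated by them or working beside their targets: Cyp2b9, Cyp2b10, Cyp2b13, Cyp2a4, Cyp2a5, Cyp1a2, Por and Alas1. They are 10 of 31829 gene names on the array. They were chosen by symbol, and every non-control probe carrying one of these 10 symbols was taken, which gave 12 probes of 39429 on the array, for 9 of the 10 symbols. No probe carried the symbol Cyp2a5. The 18 liver RNA samples came from males of the inbred strain C57BL/6J, and no engineered allele is named for either group. Mice were assigned at random at 8 weeks of age to a high-fat diet made with linseed oil (8 samples) or palm oil (10 samples) and were studied after 5 weeks, at 13 weeks of age. Linseed fat was 66.7% polyunsaturated (49.7% alpha-linolenic acid) and 9.7% saturated, and palm fat was 8.8% polyunsaturated and 55.6% saturated. Both diets gave 51.1% of energy as lipid, so no group here ate a low-fat diet.

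CAR and PXR are ligand-activated transcription factors that pair with the retinoid X receptor and switch on genes for the oxidation, conjugation and export of drugs, steroids and bile acids. CAR is mostly controlled by its movement into the nucleus and PXR by ligand binding, so the mRNA of either receptor need not track its activity. Cyp2b10 is the classic readout of CAR in mouse liver and Cyp3a11 that of PXR, although each receptor can act on both genes. The question was whether the classic CAR targets moved with diet as the Cyp3a genes did.

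No member passed the test between diets. Cyp3a11 was 4.45-fold higher on linseed oil (2.15 ± 0.16 log2 units, adjusted p = 2.62e-06, limma). CAR, PXR, the Cyp2a4 probe, Por and Alas1 differed by at most 0.19 log2 units, each in the probe that stood for the gene. The dimmer CAR probe gave 0.21, and the brighter Alas1 probe, tested only with marked spots kept, gave 0.26. Cyp2b10 had the largest measured difference among the members, 2.48-fold higher on linseed oil, with a wide spread between livers. Cyp1a2 leaned the other way, at 1.34-fold lower on linseed oil. Values are log2 of the processed spot signal over that array's 75th percentile, differences are linseed minus palm ± SE from limma, and adjusted p is by Benjamini-Hochberg over all 15951 genes tested, with 0.05 as the threshold. Of the 7 members that could be tested 0 were called, against 0.759% of all genes. At an unadjusted p of 0.05, 2 of 7 passed (Cyp2b10 and Cyp1a2), against 10.2% of all genes.

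**Figure D1:**
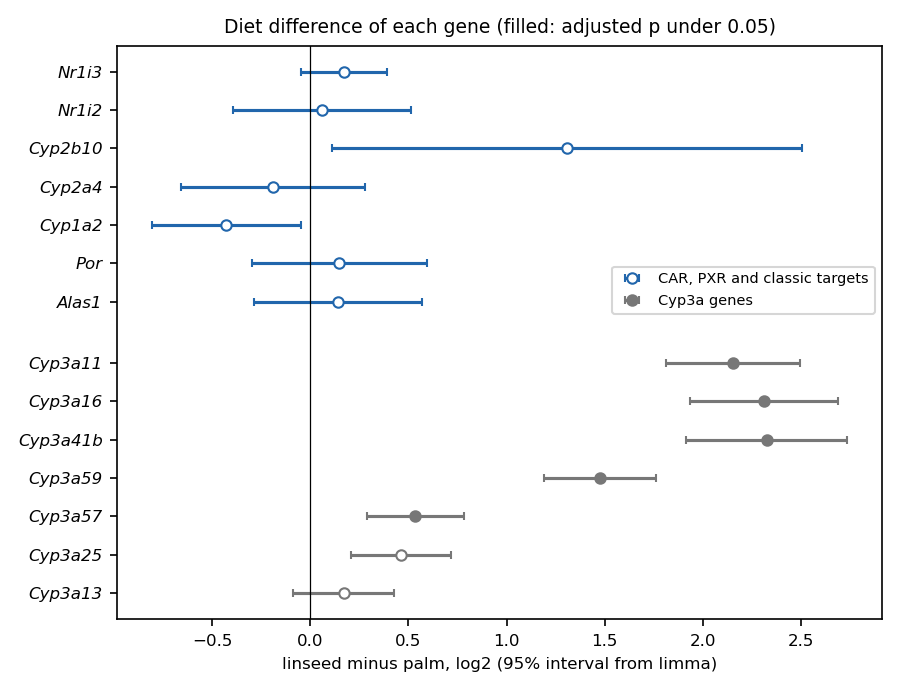
Linseed minus palm difference of each tested gene on the log2 scale (x axis) with its 95% interval from limma; blue are CAR, PXR and their classic targets, grey the Cyp3a genes, and filled points have an adjusted p under 0.05. Cyp3a11, Cyp3a16 and Cyp3a41b lie above 2, no blue point is filled, and Cyp2b10 at 1.31 has the widest interval.

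The sequence of 2 probes is shown because it decides what 2 member signals can be read as. The first is the dimmer Cyp2a4 probe, not the probe that stood for the gene in the fit. It lies at mm9 chr7:27098659-27099724, plus strand, a span of 1066 bases for a 60-base probe. The array annotation lists the transcripts of both Cyp2a4 and Cyp2a5, and that of a pseudogene, for this probe. The second stands for Cyp2b9, at mm9 chr7:26983484-26983543, plus strand, and the RefSeq transcript it lists is that of Cyp2b9.
Cyp2a4 probe: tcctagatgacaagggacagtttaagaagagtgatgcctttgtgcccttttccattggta
Cyp2b9 probe: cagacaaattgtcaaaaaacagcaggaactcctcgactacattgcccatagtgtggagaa

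The other Cyp2a4 probe is the brighter one, which stood for the gene in the fit. It lies at mm9 chr7:27099880-27099939 and also lists both genes. It differs at 4 of 56 compared bases from the probe of the pseudogene Cyp2a21-ps. Every Cyp2a4 value below is therefore the combined signal of Cyp2a4, a steroid 15-alpha-hydroxylase, and Cyp2a5, a coumarin 7-hydroxylase. Neither gene can be reported alone. Such values may also hold signal of a pseudogene, whose share was not examined.

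The 5 Cyp2a and Cyp2b members lie along the same stretch of chromosome 7, and their promoters fall into near-identical pairs. Over the 250 bases before the start site, Cyp2b9 and Cyp2b13 differed at 2 bases, and Cyp2a4 and Cyp2a5 at 4 of 249 aligned bases. The last 100 bases before each start (RefSeq, GRCm38.p6, plus strand) are shown because Cyp2b10 was measured on nearly every array while Cyp2b9 and Cyp2b13 were near background, and because the Cyp2a pair shares its probes. Capitals mark an 8-base run, TTGCATAA or TTGTATAA, that a search of both strands found in them. The stretches are Cyp2b10 at chr7:25897558-25897657, Cyp2b9 at chr7:26173309-26173408, Cyp2a4 at chr7:26307092-26307191 and Cyp2a5 at chr7:26835239-26835338.
Cyp2b10: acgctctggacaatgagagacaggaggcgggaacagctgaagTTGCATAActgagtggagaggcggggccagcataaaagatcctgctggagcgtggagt
Cyp2b9: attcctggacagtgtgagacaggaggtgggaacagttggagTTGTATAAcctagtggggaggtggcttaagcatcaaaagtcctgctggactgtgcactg
Cyp2a4: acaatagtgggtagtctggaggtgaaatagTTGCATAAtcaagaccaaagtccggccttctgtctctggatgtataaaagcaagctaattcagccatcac
Cyp2a5: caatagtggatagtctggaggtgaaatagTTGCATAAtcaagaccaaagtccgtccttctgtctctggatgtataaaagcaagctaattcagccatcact

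The Cyp2b13 stretch, at chr7:26061395-26061494, differed from that of Cyp2b9 at 0 of 100 bases. TTGCATAA stood in the 300-base windows (250 bases before to 50 after the start) of Cyp2b10, Cyp2a4 and Cyp2a5 and in 0.743% of 32851 mouse promoter windows. It began 58 bases before the start of Cyp2b10. TTGTATAA began 59 bases before the start of Cyp2b9 and Cyp2b13 and stood in 0.581% of windows. These runs were chosen after the sequences were seen. The half-site AGGTCA, searched on both strands, was in 4 member windows (Cyp2b9, Cyp2b13, Cyp2a4 and Cyp2a5) and in 16.3% of all windows. AGTTCA was in 0 of 10 members and in 14.0% of all windows. Such matches describe these windows only.

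The 18 arrays lay on 5 slides, each with both diets, and 17258 to 22445 probes per array were well above background. All 11 hepatocyte markers (among them Alb, Apoa1, Ttr and Hnf4a) were well above background on 18 arrays. Of 15951 genes, 91 were called higher and 30 lower on linseed oil. Of the 12 marker lists for liver zones and cell types, none had a called gene. The largest median difference was that of adipocyte markers, whose summed linear signal over 4 of 8 genes was 3.78 to 39.2 on linseed oil and 1.46 to 13.0 on palm oil; their part in the results below was not tested. In whole liver, fewer cells of a type and less RNA per cell cannot be told apart. Samples are called livers here; the labels do not say whether each came from a separate mouse, so p-values measure the spread between these samples, whose number limits the precision.

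CAR itself was measured by 2 probes that ranked the livers alike. The brighter Nr1i3 probe (mm9 chr1:173148765-173148824) read 3.29 at the lowest, 3.57 at the median and 3.83 at the highest in the 8 linseed livers. In the 10 palm livers the same probe read 3.00, 3.40 and 3.74. The diets overlapped: 1 linseed liver lay above all palm livers, and 3 palm livers lay below all linseed livers. The difference was 0.17 ± 0.10 (1.13-fold, adjusted p = 0.620, limma, 95% interval −0.05 to 0.39). The dimmer probe (mm9 chr1:173147776-173147835) read 2.24, 2.42 and 2.64 at the lowest, median and highest in linseed livers, against 1.85, 2.21 and 2.62 in palm livers. On it 6 of 10 palm livers lay below all linseed livers. It gave 0.21 ± 0.10 when every probe was tested on its own (unadjusted p = 0.0371, adjusted p = 0.426, limma). Across the 18 arrays the probes correlated at r = 0.91, and their interval excludes a change as large as that of Cyp3a11. Within slides the brighter probe was higher on linseed oil in 4 of 5 slides, by −0.05 to 0.44.

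PXR had a smaller difference than CAR. Nr1i2 (mm9 chr16:38248745-38248804, minus strand) read 1.71 at the lowest, 2.82 at the median and 3.16 at the highest in linseed livers, against 1.61, 2.65 and 3.36 in palm livers. The lowest liver of each diet was on slide 1. The palm range covered the whole linseed range, and the difference was 0.06 ± 0.22 (adjusted p = 0.959, limma, 95% interval −0.39 to 0.51). It was positive on 3 of 5 slides and turned to −0.012 without linseed replicate 7 and to −0.053 without palm replicate 1.

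**Figure D2:**
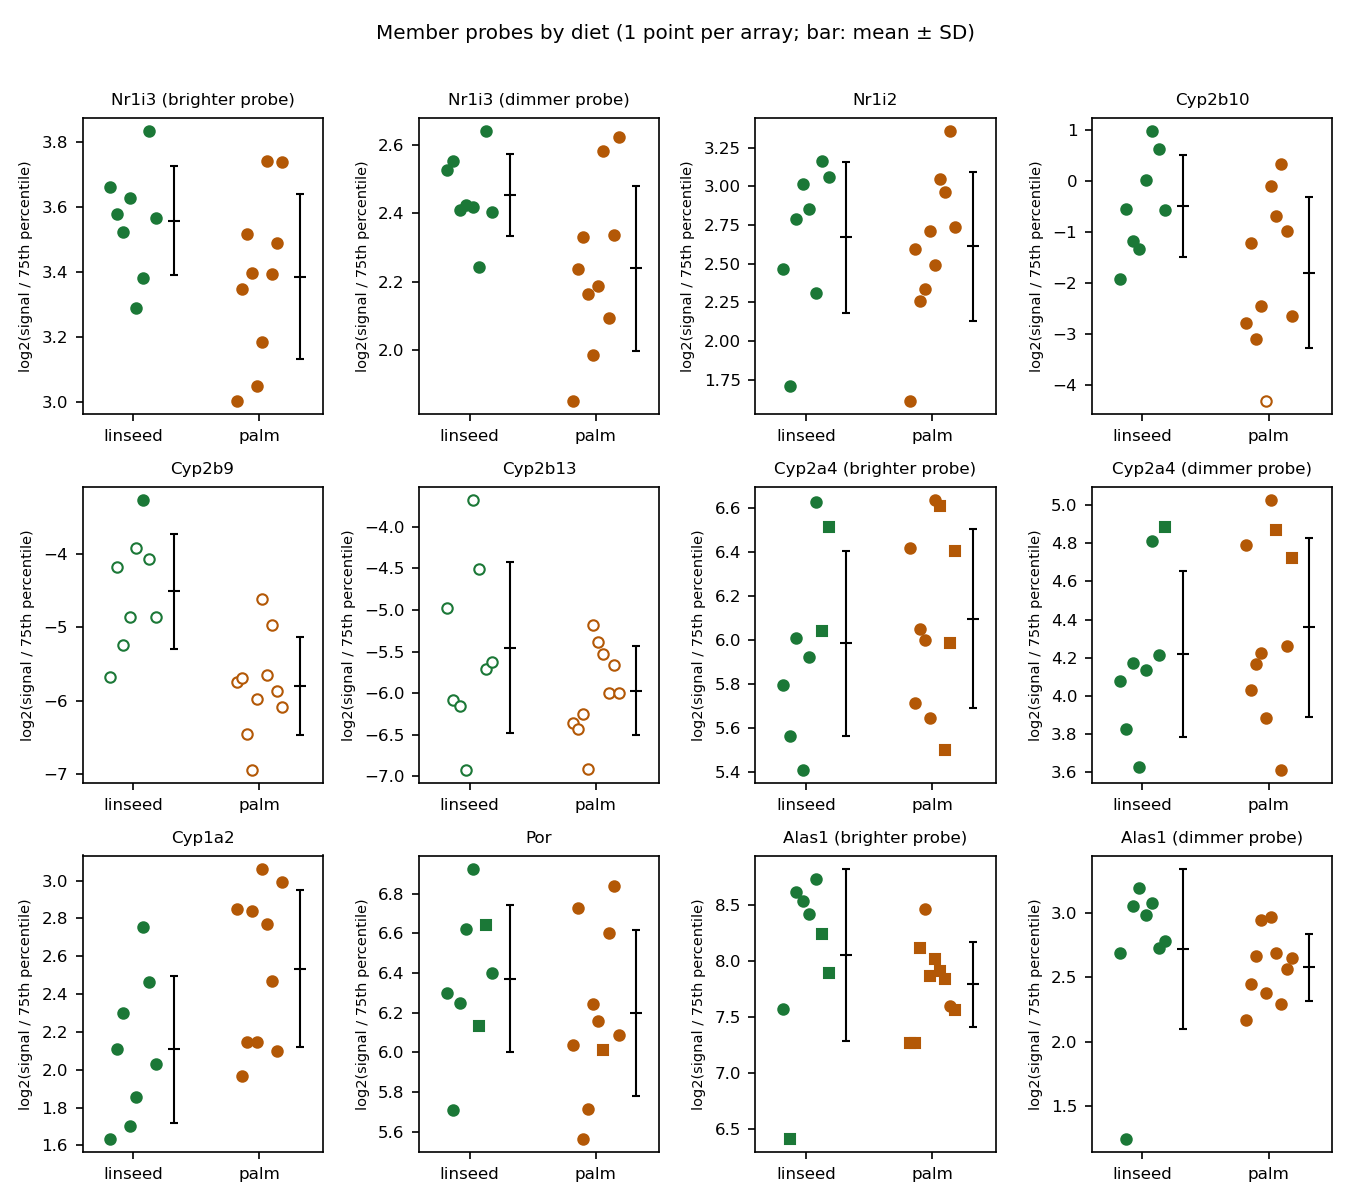
Level of each member probe in every liver (y axis, log2 of signal over the array's 75th percentile; each panel has its own scale), linseed left of palm, with the mean ± SD of all points beside them. Open points were not well above background and squares were marked by the image software; the 2 diets overlap in every panel, and Cyp2b10 covers the widest range among members measured above background.

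Cyp2b10, the barbiturate-inducible P450 used as the marker of CAR activity, varied most between livers among the tested members. Its probe (mm9 chr7:26711522-26711581) read −1.93 at the lowest, −0.55 at the median and 0.99 at the highest in linseed livers. In palm livers it read −4.32, −1.83 and 0.34. The lowest palm value was the only one of 18 not well above background. Linseed livers lay above the palm median in 7 of 8 cases, 2 of them above all palm livers, and 5 of 10 palm livers lay below all linseed livers. The difference was 1.31 ± 0.57 (2.48-fold, unadjusted p = 0.0337, adjusted p = 0.431, limma, 95% interval 0.11 to 2.50). An exact two-sided permutation of the diets over the arrays gave p = 0.0501. The SD within diets was 1.30 log2 units, against a median of 0.243 over all genes tested, and 99.6% of genes had a smaller one.

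The direction of Cyp2b10 was the same on each slide. Linseed livers were higher by 0.77 on slide 1, 1.52 on slide 2, 2.23 on slide 3, 0.99 on slide 4 and 1.24 on slide 5. The level itself differed between slides: on slide 4 the linseed mean was 0.82 and the palm mean −0.17, while on slide 2 they were −1.26 and −2.78. After diet means were removed, slides held a fraction of 0.467 of its variance, and the median gene had 0.377. With slide as a fixed block the difference was 1.29 (adjusted p = 0.253, limma). The size differed between processings: it was 0.56 with normexp background correction and 0.75 in the authors' deposited table, neither past the threshold. The normexp setting added an offset of 50 before the log, which by construction shrinks differences of dim probes. The processed Cyp2b10 signal ran from 9.31 to 316, with a median of 79.4. Why the authors' table gave a smaller difference was not tested.

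Cyp2b9 and Cyp2b13, female-biased relatives of Cyp2b10 that are low in male liver, were near background and were not tested in the fit above. The Cyp2b9 probe was well above background on 1 of 8 linseed arrays and 0 of 10 palm arrays, and the Cyp2b13 probe (mm9 chr7:26880905-26880964) on 0 of 18. No fold is given for either. The Cyp2b9 probe read −5.67 at the lowest, −4.52 at the median and −3.26 at the highest in linseed livers, against −6.95, −5.81 and −4.62 in palm livers. The diets overlapped, with 4 of 8 linseed livers above all palm livers. The Cyp2b13 probe read −6.92, −5.66 and −3.68 at the lowest, median and highest in linseed livers, against −6.91, −6.00 and −5.18 in palm livers. A fit without the filter on dim probes gave 1.29 ± 0.32 for Cyp2b9 (adjusted p = 0.192, limma), which was 0.093 ± 0.13 with normexp background correction. It gave 0.51 ± 0.35 for Cyp2b13 (adjusted p = 1.00, limma). The Cyp2b9 probe was higher on linseed oil on 5 of 5 slides, by 0.80 to 1.65. Among 16556 probes well above background on at most 1 array, 16% were higher on all 5 slides. A difference at least as large as that of Cyp2b9 was seen in 0.0181% of them. The processed Cyp2b9 signal was 1.41 to 16.6, and the normexp setting added an offset of 50 before the log. Such an offset shrinks differences at this level, so the normexp value cannot decide whether Cyp2b9 differed. No diet difference is read from such near-background values.

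The combined Cyp2a4 and Cyp2a5 signal did not pass the test in either probe. The brighter one, with marked spots kept, read 5.41 at the lowest, 5.97 at the median and 6.63 at the highest in linseed livers, against 5.50, 6.03 and 6.64 in palm livers. The diets overlapped almost fully. The fit, which left out marked spots and so used 6 linseed and 6 palm livers, gave −0.19 ± 0.22 (adjusted p = 0.840, limma, 95% interval −0.66 to 0.28), and −0.11 ± 0.19 with marked spots kept. The dimmer probe gave −0.13 ± 0.20 with 7 linseed and 8 palm livers. Both probes followed each other closely over the 18 arrays (r = 0.99), and the SD of their gap was 0.084.

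Cyp1a2, which metabolises caffeine and aromatic amines and is known mainly as a target of the aryl hydrocarbon receptor AHR as well as of CAR, leaned lower on linseed oil. Its probe (mm9 chr9:57528060-57528119, minus strand) read 1.63 at the lowest, 2.07 at the median and 2.76 at the highest in linseed livers, against 1.96, 2.62 and 3.06 in palm livers. The diets overlapped, although 5 of 10 palm livers lay above all linseed livers and 3 of 8 linseed livers lay below all palm livers. The difference was −0.43 ± 0.18 (unadjusted p = 0.0291, adjusted p = 0.413, limma, 95% interval −0.81 to −0.05). An exact two-sided permutation test gave p = 0.0418. Within slides it was negative on 5 of 5 slides, between −0.75 and −0.01, with slide 4 nearest to 0.

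**Figure D3:**
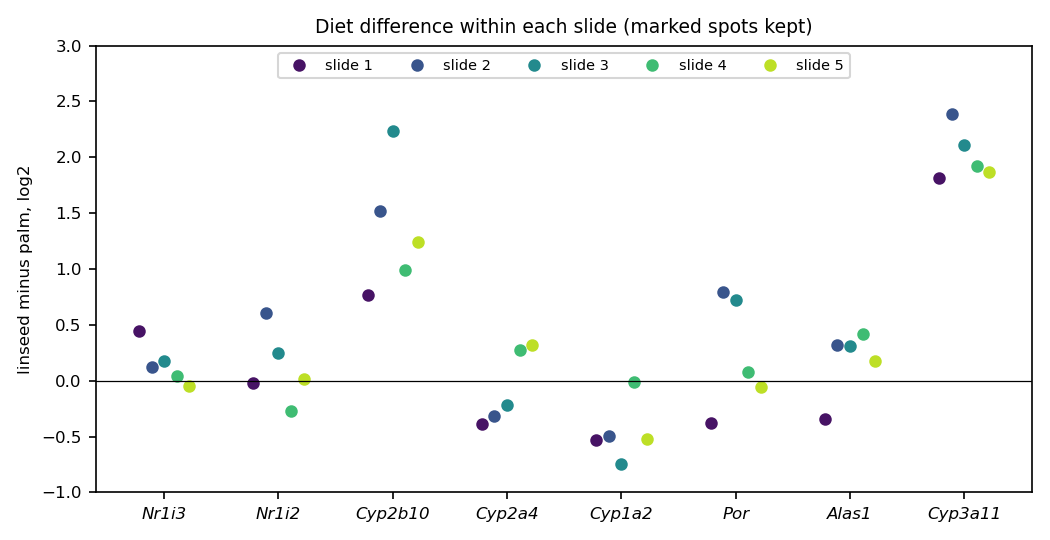
Linseed minus palm difference (y axis, log2 units) within each of the 5 slides, marked spots kept, for the 7 tested members and Cyp3a11; each point is 1 slide of 3 or 4 arrays. Cyp2b10 is above 0 and Cyp1a2 below 0 on every slide, Cyp3a11 lies between 1.82 and 2.38, and the other 5 members have points on both sides of 0, among them Por from −0.38 to 0.80 and Cyp2a4 from −0.39 to 0.32.

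The partners that all microsomal P450 enzymes need showed no call. Por, the reductase that passes electrons from NADPH to the P450s (mm9 chr5:136211122-136211181), read 5.71 at the lowest, 6.35 at the median and 6.92 at the highest in linseed livers and 5.56, 6.12 and 6.84 in palm livers, marked spots kept. The difference was 0.15 ± 0.21 with 6 linseed and 9 palm livers (adjusted p = 0.872, limma, 95% interval −0.30 to 0.59).

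Alas1, the rate-limiting enzyme of haem synthesis in liver and itself inducible through CAR and PXR, had 2 probes. The dimmer one (mm9 chr9:106135796-106135855, minus strand) read 1.24 at the lowest, 2.89 at the median and 3.20 at the highest in linseed livers, against 2.17, 2.61 and 2.97 in palm livers. Linseed replicate 2 was the low value, and 4 of 8 linseed livers lay above all palm livers. The difference was 0.14 ± 0.20 (adjusted p = 0.874, limma). Without linseed replicate 2 it was 0.35 ± 0.12 (adjusted p = 0.271, limma), and without slide 1, a choice made after seeing the data, 0.33 ± 0.12. The brighter probe (mm9 chr9:106136284-106136343, minus strand), marked on 3 linseed and 8 palm arrays, gave 0.26 ± 0.26 with those spots kept (adjusted p = 0.789, limma). The value for the dimmer probe was positive on 4 of 5 slides and negative, at −0.34, on slide 1, which holds linseed replicate 2.

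The question of moving as Cyp3a does was tested by subtracting, on each array, the value of Cyp3a11 before the fit. Each of the 7 tested members differed less between diets than Cyp3a11 by an adjusted p of 0.05, but so did 99.9% of all genes, since Cyp3a11 was taken as comparator with its rise known. The difference relative to Cyp3a11 was −2.59 ± 0.22 for Cyp1a2, −2.44 ± 0.26 for Cyp2a4, −1.97 ± 0.28 for Nr1i2 and −1.87 ± 0.22 for Nr1i3. It was −2.04 ± 0.27 for Alas1 and −2.01 ± 0.26 for Por.

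Cyp2b10 was the member for which this comparison was least firm. Cyp2b10 relative to Cyp3a11 differed by −1.02 ± 0.45 (adjusted p = 0.0304, limma, 95% interval −1.94 to −0.10) over the 7 linseed and 8 palm livers with an unmarked Cyp3a11 spot. An exact two-sided permutation test on the same livers gave p = 0.118. With marked spots kept, in all 18 livers, it was −0.72 ± 0.43 (adjusted p = 0.106, limma; exact two-sided permutation p = 0.217). The call in the main fit held in 15 of 22 alternative settings, among them slide as a fixed or random block. Single livers decided this call: it was lost without linseed replicate 1 (−0.83) or 3 (−0.91), and without palm replicate 2 (−1.03), 6 (−0.86), 8 (−0.70) or 9 (−0.87). Whether Cyp2b10 moved less than Cyp3a11 was thus not settled by these arrays. In the main fit the 95% intervals of the other tested members lay at or below −1.39. With marked spots kept they lay at or below −1.176, the upper end for Alas1.

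**Figure D4:**
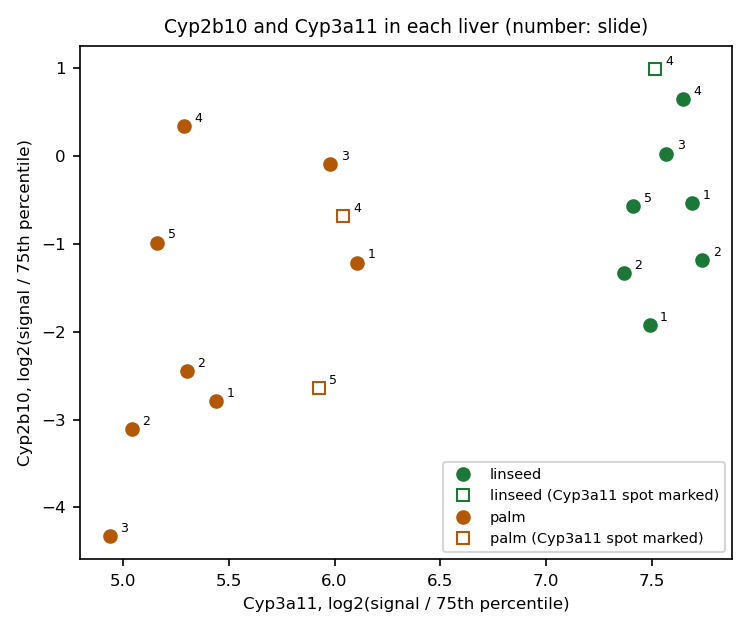
Cyp2b10 (y axis) against Cyp3a11 (x axis) in each of the 18 livers, both as log2 of signal over the array's 75th percentile, linseed green and palm orange, with the slide number beside each point and open squares where the Cyp3a11 spot was marked. Linseed livers lie above 7.3 and palm livers below 6.2 for Cyp3a11 without overlap, whereas for Cyp2b10 the diets overlap, from −1.93 to 0.99 on linseed oil and from −4.32 to 0.34 on palm oil.

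Cyp3a11 read 7.37 at the lowest, 7.54 at the median and 7.74 at the highest in linseed livers, against 4.94, 5.37 and 6.11 in palm livers, marked spots kept. Of the 7 Cyp3a genes tested, 5 were called higher, against 0.57% of all genes. Besides Cyp3a11 these were Cyp3a16 by 2.31 ± 0.18, Cyp3a41b by 2.33 ± 0.20, Cyp3a59 by 1.48 ± 0.14 and Cyp3a57 by 0.53 ± 0.12 (adjusted p = 0.0401, limma). Cyp3a25, at 0.46 ± 0.12 (adjusted p = 0.0950), and Cyp3a13, at 0.17 ± 0.12, were not called. Signal shared between Cyp3a probes was not examined. The call of Cyp3a57 was lost in 23 of 33 alternative settings and that of Cyp3a59 in 1 of 35.

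Some other genes known to respond to CAR and PXR did rise on linseed oil. Of 41 such genes 31 were tested, 4 were called higher and 0 lower (0.57% of all genes were called higher and 0.188% lower). The median difference was 0.18, against −0.0038 over all genes. The 9 tested hepatocyte markers also leaned up, with a median of 0.13 and 8 positive. The list was drawn up with earlier results of these data known. Abcc3, a basolateral exporter of glucuronides and bile acids, rose 2.20-fold (1.14 ± 0.12, adjusted p = 0.000271, limma, 6 linseed and 9 palm livers). Ephx1, the microsomal epoxide hydrolase, rose 1.71-fold (0.78 ± 0.14, adjusted p = 0.0114, limma). The glutathione transferases Gsta1 and Gsta2, which also answer to NRF2, rose 2.46-fold and 2.12-fold (adjusted p = 0.0280 and 0.0394, limma). These are probes of near relatives whose shared signal was not examined. The Abcc3 call was lost in 1 of 26 settings and that of Ephx1 in 5 of 35, among them the mean of its probes at 0.22. That of Gsta1 was lost in 12 of 34 and that of Gsta2 in 18 of 34. Gsta1 was at 0.51 with normexp background correction, whose offset shrinks differences of dim probes.

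Other families near the members showed few calls. Over all genes, 0.759% were called and 10.2% had an unadjusted p under 0.05. Of 8 further Cyp2a and Cyp2b neighbours on the list, 3 were tested and 0 called; the smallest p was that of Cyp2t4 (−0.34 ± 0.18, adjusted p = 0.57, limma). Of 24 partners and regulators of the receptors, such as Rxra, Hsp90ab1 and Ncoa1, 0 were called at an adjusted p of 0.05 and 0 had an unadjusted p under 0.05, the smallest p being that of Gadd45b, a CAR co-activator (0.57 ± 0.27, adjusted p = 0.49, limma). Of 7 further electron partners of P450 enzymes 0 were called and 2 had an unadjusted p under 0.05, led by the haem-binding Pgrmc1 (0.24 ± 0.08, adjusted p = 0.271, limma). Of 11 haem synthesis and breakdown genes tested beside Alas1, 0 were called and 0 had an unadjusted p under 0.05, with Uros first (−0.19 ± 0.09, adjusted p = 0.525, limma). Some listed genes were left untested by marked spots and passed once those were kept: Blvrb, a biliverdin reductase on the haem list (0.44 ± 0.08, adjusted p = 0.0144, limma), and Ces2a, a carboxylesterase on the list of CAR and PXR targets (0.65 ± 0.13, adjusted p = 0.0203, limma).

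Among 7 tested genes of the AHR pathway 1 was called higher, against 0.57% of all genes. It was Nqo1, a quinone reductase also driven by NRF2, which rose 1.53-fold (0.61 ± 0.13, adjusted p = 0.0301, limma). The call was lost in 14 of 33 settings (0.15 with normexp, whose offset shrinks differences of dim probes). Cyp1a1, the usual marker of AHR activity, was well above background on 1 of 18 arrays. Of 11 tested female-biased liver genes 3 were called higher, against 0.57% of all genes. They were Cyp3a16, Cyp3a41b and Acot3, a peroxisomal thioesterase (1.91 ± 0.31, adjusted p = 0.0044, limma). The Acot3 call was lost in 1 of 35 settings. Both Cyp3a genes are already counted among the Cyp3a genes above. The members Cyp2b9, Cyp2b13 and Cyp2a4 belong to this group, but Cyp2b9 and Cyp2b13 were not tested and Cyp2a4 was at −0.19. Cyp4a14, a fatty acid hydroxylase on the same list, was tested only with marked spots kept and then passed (2.92 ± 0.34, adjusted p = 0.000205, limma). Blvrb, Ces2a and Cyp4a14 are named after their values were seen. Of 17 tested male-biased genes 1 was called lower, against 0.188% of all genes. This was Serpina12, at −1.50 ± 0.22 (adjusted p = 0.00218, limma). Its call was lost in 2 of 32 settings, among them normexp (−0.39, adjusted p = 0.141, limma), whose offset bears on this dim probe too. Of 10 tested genes of pericentral hepatocytes, the zone where Cyp1a2 and Cyp2a5 are highest, 0 were called. Of these 10, 1 had an unadjusted p under 0.05, against 10.2% of all genes.

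**Figure D5:**
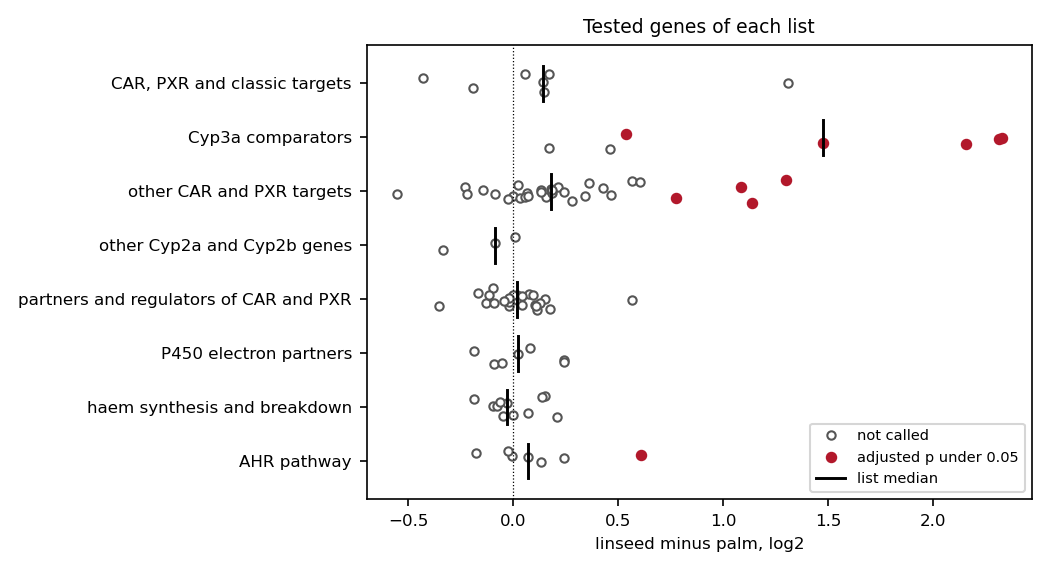
Linseed minus palm difference (x axis, log2 units) of each tested gene in 8 gene lists (rows), red where the adjusted p was under 0.05, with the list's median as a black bar. Calls stand in the Cyp3a row (5 of 7), among other CAR and PXR targets (4 of 31) and in the AHR row (1 of 7), and in no other row shown.

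Some members were correlated between livers of the same diet. Of 21 pairs among the 7 tested members, 2 correlated over the 18 arrays after diet means were subtracted, by a permutation test with p adjusted over the 21 pairs. Correlations at least as strong as the weaker of them, in either direction, made up 3.11% of all pairs among the 15951 genes. The combined Cyp2a4 and Cyp2a5 signal followed Cyp1a2 (Pearson's r = 0.70, permutation p = 0.00282, adjusted p = 0.0339; Spearman's rho = 0.68, permutation p = 0.00334, adjusted p = 0.0414). Without the 2 arrays farthest from the median r was 0.57, and after slide means were also subtracted it was 0.70. PXR followed Por (r = 0.68, permutation p = 0.00323, adjusted p = 0.0339; rho = 0.67, permutation p = 0.00394, adjusted p = 0.0414), with r = 0.67 without the 2 farthest arrays and 0.80 after slide means. The pairs of a receptor with Cyp2b10 did not pass: r was 0.29 for PXR (permutation p = 0.256) and 0.13 for CAR (permutation p = 0.633). These pairs were tested after the values had been seen.

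The genes whose pattern was most like a member's, over the same deviations from diet means and 12608 genes, are given as a description. For PXR they were Gm826 (r = 0.86), Il1r1 (0.86) and Cdip1 (0.85), and for CAR Usp20 (0.77), Tecpr2 (0.74) and Dmxl2 (0.74). For Cyp2b10 they were Olfr704 (0.77), Sds (0.74) and Ugt1a10 (0.74), the last a glucuronosyltransferase with a diet difference of 0.66 ± 0.16 (adjusted p = 0.0561, limma). For the combined Cyp2a4 and Cyp2a5 signal they were the pseudogene Cyp2a21-ps (0.99), whose probe is nearly the same sequence, Prnp (0.90) and Trmt2b (0.89). Arrays of a slide share their hybridisation, and within slides these values were 0.50 to 1.00.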

How the data were processed

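Per the file headers, the authors extracted spot intensity values with Agilent Feature Extraction 9.5.3.1; the processed signal is background-subtracted. The authors' deposited table holds log2 values of 18060 probes, whose scaling and filters are not given in the sources used here; their medians per array were 7.85, and genes were not centred. It served as an alternative. Feature Extraction 9.5 and limma are named in the submitters' processing notes. Here, log2 processed signal was scaled to each array's 75th percentile over non-control probes, marked spots (238 to 1703 per array) were left out, and probes well above background on at least 8 arrays with values on at least 6 per diet were fitted with limma 3.58.1 in R 4.3.3 after a test on simulated data. Each gene was represented by the brightest probe that passed; 593 genes could not be tested because of marked spots. Groups came from titles, and slides coincided with scan groups. Named genes are all members, up to 4 called genes per pathway list by adjusted p or the 1 with the smallest p, all tested Cyp3a genes and the 3 genes most correlated with CAR, PXR, Cyp2b10 and Cyp2a5, the last through the probes named Cyp2a4. The members and lists were chosen with earlier results of these data known. Probe names were updated through RefSeq (GRCm38.p6); probe positions are mm9. Replicate numbers were not taken to pair samples. Of 8 same-numbered pairs 5 had deviations correlated above 0.1, but 6 of the 8 shared a slide. Those on different slides read 0.0012 and −0.24, so pairing and a shared slide cannot be told apart.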

Additional observations from a re-analysis of the deposited data

Results flagged for a closer look

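Of 20 groups of values looked at for a single sample far from the others, 1 was flagged; chance alone flags about 1 in 20 such groups. In linseed replicate 2 the dimmer Alas1 probe read 1.24, while the next lowest linseed liver read 2.69 and the highest 3.20. The brighter Alas1 probe read 6.41 on the same array, also the lowest of the linseed livers, on a spot marked by the image software. Nr1i2 and Por had their lowest linseed value in this liver too, at 1.71 and 5.71.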

How the results depend on the processing

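Of the 7 tested members none was called in any alternative setting that gave it a value (26 for Por, 33 for Cyp2b10 and 34 or 35 for the rest), and Cyp2b9, tested only without the filter on dim probes, was called in 2 settings given below; the settings included other scalings, slide blocks, the authors' table and each array left out. The number of called genes, 121, fell to 68 with normexp background correction (offset 50) and to 42 with the percentile over unmarked spots. It fell to 44 without the filter on dim probes and to 63 with a minimum change of 1.5-fold. It rose to 200 with slide as a random block. Leaving out single arrays gave 51 to 142, with the count lower by over 1.5 times without linseed replicate 2, 3, 5 or 7 or palm replicate 1, 5, 6, 9 or 10; the cause was not tested. Chosen after seeing the data, leaving out slide 1 gave 23 and leaving out slides 4 and 5 gave 22. The replicate block over the 8 shared numbers gave 18 genes, 0 of them members. Cyp2b10 ranged from 0.56 to 1.54, Cyp1a2 from −0.58 to −0.36, CAR from 0.10 to 0.29, and Alas1 from 0.037 to 0.35, highest without linseed replicate 2; PXR ranged from −0.053 to 0.20 over single arrays left out and turned to −0.012 without linseed replicate 7 and −0.053 without palm replicate 1. Without a filter on dim probes, the fit called Cyp2b9 once slides were blocked, fixed (adjusted p = 0.0419, limma) or random (adjusted p = 0.0242, limma). These values lay near background, and the Cyp2b9 difference was 0.093 with normexp, whose offset of 50 shrinks differences of such dim probes. Of 7 members below Cyp3a11, 6 to 7 were called over the alternatives. Cyp2b9 and Cyp2b13 are limited by signal near background.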
